A study of Mus musculus and Rattus norvegicus with 26 samples.

Results

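Intronic sequence read in the RNA of single mouse hippocampal neuron cell bodies (somas) was compared with that of mouse ventricular cardiomyocytes. Both cell types are electrically excitable, and only one of them contracts, so ion channel genes and contractile genes were followed through both. The comparison used every contig, that is every continuous stretch of intronic reads, in the pooled list deposited for each cell type. An intron was matched between the lists by transcript, gene symbol and intron number, and its read count was taken once. The 2 lists together held 29000 contigs in 20147 introns of 8400 genes, out of 46599 introns of 12467 genes in the 4 mouse lists of the series.

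The somas were 3 libraries from primary hippocampal cultures of C57BL/6 mice, set up at embryonic day 18. The neurons were then grown in culture, so that day is not their age at harvest. The cardiomyocytes were 9 libraries by the sample labels, from embryonic day 14.5 ventricles of transgenic C57BL/6 mice. The authors describe fewer single cardiomyocytes than these labels, and which libraries entered the pooled list could not be checked. These mice carried 1 copy of the Fucci probe mAG-hGem, a green marker of dividing cells driven by the ubiquitous CMV promoter, and the cells were isolated by flow sorting for fluorescence and viability. All of these libraries went through 3 rounds of antisense RNA amplification from a poly(T) primer, and both kinds of cell were taken with their nucleus. Intronic reads can therefore come from unspliced nuclear RNA as well as from retained introns. To limit nuclear RNA the authors kept only contigs of at most 400 bases in these cells. All contigs are used here, and that limit is given below as an alternative setting. The reads carry no strand, so those of a gene and of an overlapping antisense gene cannot be told apart. Age, culture, sorting, number of libraries and cell type cannot be told apart in this design. The libraries of a cell type were pooled in its list, so each cell type is 1 list without replicates, and no test between them was possible. Intervals given below cover counting error only. Most counts in the soma list were even (74.7%, against 57.3% in the cardiomyocyte list), so the reads are not independent molecules and the intervals are narrower than the true error.

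Voltage-gated and ligand-gated channels set the firing of neurons and the beat of the heart, often through related genes of one family: neurons rely on presynaptic calcium channels and on glutamate and GABA receptors, whereas cardiomyocytes couple the L-type calcium channel to the ryanodine receptor of the sarcoplasmic reticulum. The contractile genes encode the thick and thin filaments of the sarcomere, the Z-disc that anchors them and the dystrophin complex that ties them to the membrane. Genes of both groups are often long, with introns many times the length of their exons.

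The soma list held 1855447 intronic reads in 10568 introns of 5895 genes and the cardiomyocyte list 12201042 reads in 13056 introns of 6205 genes. Reads were therefore scaled to 1000000 reads of their own list. A single read was worth 0.539 scaled reads in the somas and 0.0820 in the cardiomyocytes, so an intron at the lowest levels could be listed in the cardiomyocytes and missed in the somas. Most markers of each cell type followed the labels. Of 15 neuron markers 10 were listed in the somas, and 9 of these leaned to the somas by the rule given below, with the synaptic vesicle calcium sensor Syt1 at 4668 scaled reads and the vesicle fusion protein Snap25 at 935, neither of them listed in cardiomyocytes. The neuron markers Dcx, Elavl4, Ncam1 and Celf4 were not listed in either, and Map2 had no entry in the annotation used. The neuron marker Dlg2, a synaptic scaffold, was also listed in the cardiomyocytes, at 553.8 scaled reads. Of 15 cardiomyocyte markers 13 were listed, and all 13 leaned to the cardiomyocytes, with the sarcomeric cross-linker Actn2 at 3012 scaled reads there and unlisted in somas. The transcription factors Nkx2-5 and Gata4 were the markers listed in neither. Markers of other cells were also listed, with 142 scaled reads in sum for 3 astrocyte genes, 1.08 for 1 oligodendrocyte gene and 37.7 for 1 microglial gene in the somas, with none of these listed in cardiomyocytes. Smooth muscle genes came to 3.23 in somas and 8.28 in cardiomyocytes, and 1 erythroid gene to 0.328 in cardiomyocytes alone. The 5 endothelial genes came to 733.0 in somas and 288.1 in cardiomyocytes. Of these, Kdr had 380.5 scaled reads in the somas and was not listed in cardiomyocytes, and Tek was about equal, at 292.1 and 287.2. In the somas 1 fibroblast gene (Pdgfra, 55.0) and 1 epicardial gene (Upk3b, 44.2) were also listed. The part of such cells in the values below was not tested.

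The genes overlapped far more than the introns did. Of the 8400 genes, 3700 (44.0%) were in both lists, 2195 (26.1%) in the soma list alone and 2505 (29.8%) in the cardiomyocyte list alone. Of the 20147 introns, only 3477 (17.3%) were in both lists, while 7091 (35.2%) were in the soma list alone and 9579 (47.5%) in the cardiomyocyte list alone. With at least 10 scaled reads per intron the order of the lists turned, to 4369 introns and 2079 genes in the somas alone against 4150 and 1633 in the cardiomyocytes alone, and 1149 introns were in both. Among the 3700 shared genes, 2462 (66.5%, 95% Wilson interval 65.0 to 68.0%) had at least 1 intron in common, and in 1226 (33.1%) the most-read intron was the same. The shared genes still carried most reads, with 74.7% of the soma reads and 79.0% of the cardiomyocyte reads. Across the shared introns the scaled reads of the 2 lists were only weakly related (Spearman's rho 0.18 over 3477 introns, which are not replicates and share their libraries). In 1283 of these introns (36.9%) the somas were at least 4-fold higher, and in 901 (25.9%) the cardiomyocytes were. The median ratio of somas to cardiomyocytes was 1.51 over the shared introns, so a ratio near that value is the middle of the data and not 1.

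To compare presence at a like level, a gene was said to lean to a list where it had at least 10 scaled reads there and was at least 4-fold lower, or not listed, in the other. By this rule, 2342 genes (27.9%) leaned to the somas and 1992 (23.7%) to the cardiomyocytes. The ion channel list held 287 genes, of which 135 were listed: 53 in both lists, 62 in the somas alone and 20 in the cardiomyocytes alone. Of the 135, 61 (45.2%) leaned to the somas and 15 (11.1%) to the cardiomyocytes. The contractile list held 154 genes, of which 96 were listed: 41 in both, 10 in the somas alone and 45 in the cardiomyocytes alone. Of the 96, 8 (8.33%) leaned to the somas and 61 (63.5%) to the cardiomyocytes. The 2 groups also differed in their weight in each list. Ion channel genes took 5.64% of the soma reads and 3.88% of the cardiomyocyte reads, a ratio of 1.45. Contractile genes took 0.656% of the soma reads and 10.6% of the cardiomyocyte reads, a ratio of 0.0616. Among the members found in both lists, the median log2 ratio of somas to cardiomyocytes was 2.86 for ion channels and -3.46 for contractile genes, beside 0.50 over all shared genes.

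**Figure D1:**
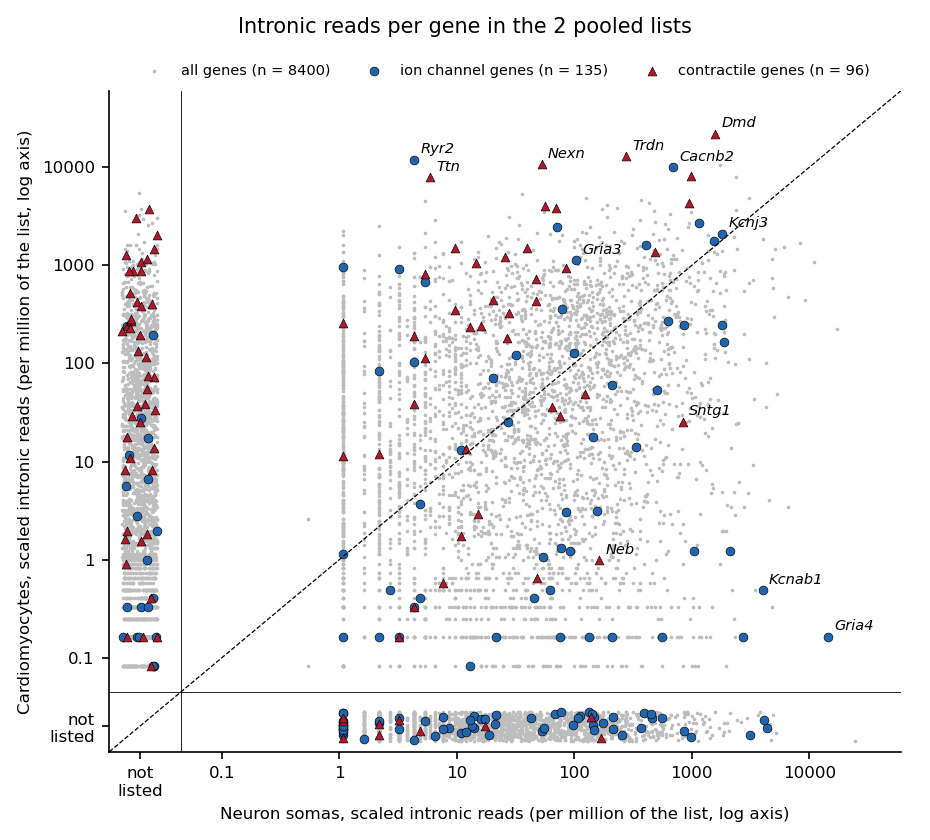
Scaled intronic reads per gene (per 1000000 reads of the list, log axes) in neuron somas (x axis) and cardiomyocytes (y axis), with genes missing from a list drawn in the strip marked "not listed" (spread at random within it) and the dashed line at equal values. Ion channel genes (blue circles) lie on both sides, with Gria4 at the far right and Ryr2 and Cacnb2 at the top, whereas most contractile genes (red triangles) lie above the line or in the strip of genes not listed in the somas.

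The sequences below show the 2 features of the contigs to which the results return. The first set holds short introns of contractile genes that 1 cardiomyocyte contig spanned from end to end. They are printed in the sense direction with the splice-site dinucleotides, GT at the start and AG at the end, in capitals. Coordinates are in the mouse build NCBIM37 (mm9). They are intron 12 of Nexn, a Z-disc actin-binding protein (chr3:151900544-151900628, minus strand), intron 6 of Myl3, a ventricular light chain (chr9:110671957-110672088, plus strand), intron 5 of Myl2, its regulatory partner (chr5:122554915-122554996, plus strand), and intron 125 of Ttn, the giant spring of the sarcomere (chr2:76692276-76692443, minus strand).
Nexn intron 12: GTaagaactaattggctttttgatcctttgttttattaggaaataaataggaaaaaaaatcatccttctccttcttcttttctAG
Myl3 intron 6: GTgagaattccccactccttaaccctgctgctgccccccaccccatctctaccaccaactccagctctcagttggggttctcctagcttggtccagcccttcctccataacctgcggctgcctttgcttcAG
Myl2 intron 5: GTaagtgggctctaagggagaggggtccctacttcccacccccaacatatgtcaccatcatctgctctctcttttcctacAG
Ttn intron 125: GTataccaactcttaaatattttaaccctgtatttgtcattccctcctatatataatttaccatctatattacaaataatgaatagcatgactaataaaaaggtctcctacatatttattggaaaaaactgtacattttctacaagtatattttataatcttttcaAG

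The second set holds the last 60 bases of a contig and the 100 bases that follow it in the sense direction, with runs of at least 10 A in capitals. For each gene list and cell type these are among the 2 genes with the most-read introns whose contig was followed by such a run within 80 bases. Sntg1 intron 6 (chr1:8743802-8743961, minus strand) and Sgce intron 2 (chr6:4675202-4675361, minus strand) come from the soma list. Cacnb2 intron 2 (chr2:14775463-14775622, plus strand) and Dmd intron 1 (chrX:80196259-80196418, plus strand) come from the cardiomyocyte list. The run began 16 bases after the contig in Sntg1, 2 in Sgce, 3 in Cacnb2 and 11 in Dmd.
Sntg1 intron 6: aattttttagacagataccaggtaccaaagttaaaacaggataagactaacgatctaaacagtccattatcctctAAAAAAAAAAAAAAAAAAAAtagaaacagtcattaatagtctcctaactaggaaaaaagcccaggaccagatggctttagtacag
Sgce intron 2: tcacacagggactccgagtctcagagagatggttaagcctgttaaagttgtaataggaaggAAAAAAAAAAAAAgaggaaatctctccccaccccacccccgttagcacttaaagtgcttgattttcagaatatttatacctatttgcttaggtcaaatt
Cacnb2 intron 2: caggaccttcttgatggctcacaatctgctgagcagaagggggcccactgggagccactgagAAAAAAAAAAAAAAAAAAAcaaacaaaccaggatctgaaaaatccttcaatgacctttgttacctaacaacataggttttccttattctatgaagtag
Dmd intron 1: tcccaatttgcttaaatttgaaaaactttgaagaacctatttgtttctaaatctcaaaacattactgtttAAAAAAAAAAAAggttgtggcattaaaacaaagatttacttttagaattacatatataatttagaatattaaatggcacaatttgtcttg

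The neuron side of the ion channel list was led by glutamate receptors, which carry fast excitatory transmission. Gria4, an AMPA receptor subunit, had 14459 scaled reads in the somas, the most of any channel gene in either list, and 0.164 (2 reads) in the cardiomyocytes. Its intron 5 (contigs within chr9:4525391-4534665) held 92.9% of its soma reads. Gria1, another AMPA subunit, had 4101 scaled reads spread over 8 introns and was not listed in cardiomyocytes. The kainate receptor gene Grik1 stood at 2701 scaled reads in somas and at 0.164 in cardiomyocytes. Of 15 listed genes of this family, 10 leaned to the somas and 2 to the cardiomyocytes. One of those 2 was the AMPA subunit Gria3, at 103.5 scaled reads in somas and 1130 in cardiomyocytes, with its introns 4 and 5 in the cardiomyocyte list alone.

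Of the inhibitory receptor genes 14 were listed, all 14 in the somas and 5 of them also in the cardiomyocytes, and 8 leaned to the somas. The GABA receptor subunit Gabrb2 led them at 3112 scaled reads and was not listed in cardiomyocytes. None of the family leaned to the cardiomyocytes, although Gabra2 had similar values in both lists, 100.2 and 126.9, and Gabrb1 stood at 20.5 and 71.4. The median log2 ratio of the 5 shared members was -0.09. The nicotinic receptor gene Chrna7 had 988.4 scaled reads in the somas and was not listed in cardiomyocytes, while P2rx5, an ATP-gated channel, stood at 4.31 and 102.8.

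The voltage-gated calcium channel genes split by subunit. Cacna1b, the pore of the N-type channel of nerve terminals, had 4342 scaled reads in the somas, 81.2% of them in intron 26 (contig at chr2:24507628-24508337), and was not listed in cardiomyocytes. Cacna1e and Cacna1a, pores of R-type and P/Q-type channels, had 394.5 and 133.1 scaled reads in the somas and were also not listed in cardiomyocytes. Cacna1c, the pore of the L-type channel of heart muscle, showed the opposite order, 71.1 in somas and 2442 in cardiomyocytes, a 34.3-fold difference (28.9 to 41.0). With contigs of at most 400 bases its soma to cardiomyocyte ratio was 0.1504 in place of 0.0291. Cacna1d, another L-type pore, leaned to the somas instead, at 145.5 and 17.8. Intron 10 of Cacna1c (contig at chr6:118658254-118661047) held 18104 cardiomyocyte reads and no listed contig in the somas. The auxiliary subunit gene Cacnb2 was 14.5-fold higher in cardiomyocytes (13.7 to 15.3), at 10032 against 691.5 scaled reads, whereas Cacnb4, another beta subunit, had 209.1 in somas and 0.164 in cardiomyocytes. In Cacnb2 the same intron 2, of 260413 bases, led both lists, with 99.7% of the soma reads and 88.6% of the cardiomyocyte reads of the gene.

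Most sodium channel genes were on the soma side. Scn2a1 (556.2 scaled reads) and Scn8a (557.3), sodium channels of neurons, were at 0.164 and not listed in cardiomyocytes. Both were also in the list of brown adipose tissue, Scn2a1 at 26.4 and Scn8a at 1183 scaled reads. Of 8 listed genes of the family, 5 leaned to the somas and 1 to the cardiomyocytes.

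Of the 18 listed voltage-gated potassium channel genes, 13 leaned to the somas and 1 to the cardiomyocytes. Kcnab1, an auxiliary beta subunit, led with 4003 scaled reads in the somas and 0.492 in the cardiomyocytes, and Kcnd3, a channel of transient outward current, had 368.6 in the somas and was not listed in cardiomyocytes. Kcnh7, of the ERG family, was listed in both, at 1797 and 247.2, and its ratio of 7.27 became 1.37 with contigs of at most 400 bases. The exception was Kcnq5, at 2.16 in somas and 83.1 in cardiomyocytes. Among the other potassium channels were highly read members with similar totals in both lists. Kcnj3, a G protein-gated inward rectifier used by neurons and by the atria, had 1817 scaled reads in somas and 2112 in cardiomyocytes, and Kcnn2, a calcium-activated channel, 1545 and 1758. In contrast, Kcnt2, a sodium-activated channel, had 2121 scaled reads in somas and 1.23 in cardiomyocytes. The calcium-activated channel Kcnma1 leaned to the somas, at 91.1 and 1.23 scaled reads, with 159 soma reads and 5 cardiomyocyte reads in intron 6, 2 and 10 in intron 15, and 8 in the somas alone in intron 21.

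Of the 6 listed intracellular calcium release channel genes 3 leaned to the cardiomyocytes and none to the somas, with 13352 scaled reads in sum against 867.2. Ryr2, the ryanodine receptor of heart muscle, had 8 reads in the somas (4.31 scaled) and 146224 in the cardiomyocytes (11985 scaled), spread over 47 introns. Intron 81 (chr13:11713662-11715168) led with 29463 reads, 20.1% of the gene. Itpr2, an inositol trisphosphate receptor, was at 3.23 and 927.1, and Ryr3 at 193.8 in the cardiomyocytes alone. Itpr1, the inositol trisphosphate receptor of neurons, leaned to neither list, at 857.5 and 246.5. Among the chloride channels Clcn3 had 2 soma reads (1.08 scaled) and 953.7 scaled reads in cardiomyocytes, while the scramblase Ano6 had 627.3 and 268.3, a ratio of 2.34 that became 15.3 with contigs of at most 400 bases. The TRP channel Trpm7, found in many tissues, was listed at 406.9 and 1625, and Trpc4 at 446.3 in the somas alone.

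**Figure D2:**
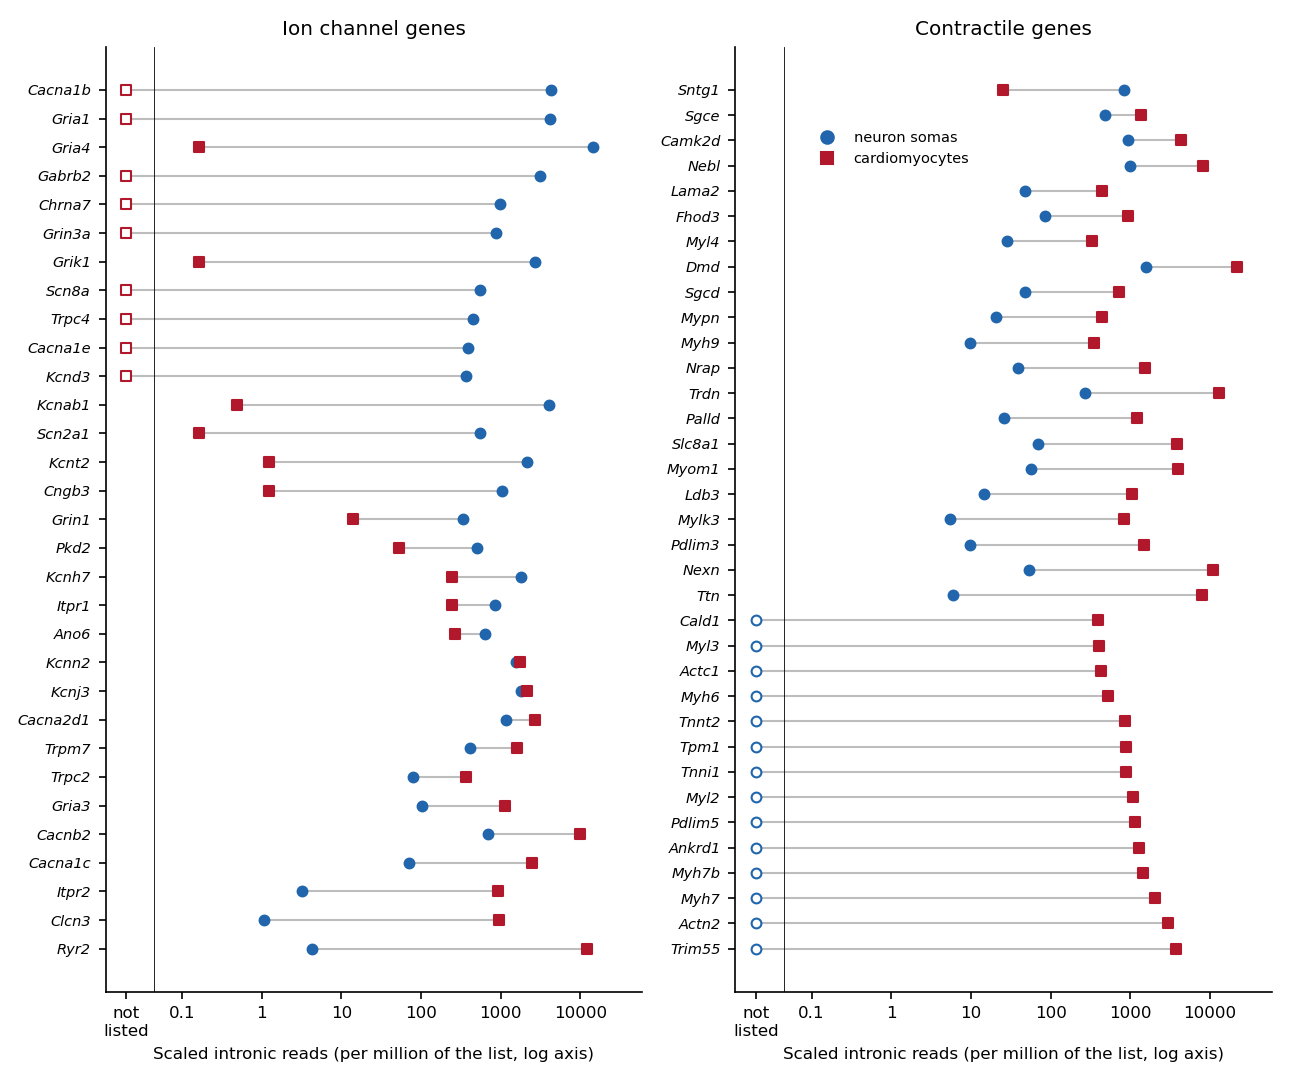
Scaled intronic reads (per 1000000 reads of the list, log axis) of ion channel genes (left) and contractile genes (right), each with at least 300 in either list, ordered by their ratio, for which a gene not listed was placed at a value below 1 read. Blue circles are neuron somas, red squares are cardiomyocytes, and open symbols mark genes not listed. Channel genes run from Cacna1b, not listed in cardiomyocytes, to Ryr2, whereas among the contractile genes shown Sntg1 alone was higher in the somas.

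Contractile genes were listed mainly in cardiomyocytes, and the Z-disc group was the clearest, with 20 of 27 listed members leaning to cardiomyocytes and 1 to somas. Nexn had 98 soma reads (52.8 scaled) and 131492 cardiomyocyte reads (10777 scaled), a 204-fold difference (167 to 251). With contigs of at most 400 bases its soma to cardiomyocyte ratio was 0.0441 in place of 0.00490. Trim55, a muscle ubiquitin ligase, and Ankrd1, a stress-responsive Z-disc protein, had 3716 and 1278 scaled reads in cardiomyocytes and were not listed in somas. Pdlim3 and Ldb3, PDZ-LIM proteins of the Z-disc, had 1495 and 1065 against 9.70 and 14.6. The member that leaned to the somas was Trim54, at 48.5 and 0.656.

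In the thick filament group, 10 of 16 listed members leaned to the cardiomyocytes. The myosin heavy chains Myh7 (2016 scaled reads) and Myh6 (527.8) were listed in cardiomyocytes alone, as were the light chains Myl2 (1070) and Myl3 (407.2). The M-line protein Myom1 had 4002 in cardiomyocytes and 56.1 in somas. Myh15 ran the other way, with 138.0 scaled reads in somas alone. The thin filament group had 12 of 20 leaning to cardiomyocytes, including the troponins Tnni1 (882.2) and Tnnt2 (867.5), tropomyosin Tpm1 (877.1) and cardiac actin Actc1 (425.3), none of them listed in somas. The nebulin genes were divided. Nebl, the cardiac member, had 991.1 and 8215 scaled reads, whereas Neb, the long skeletal muscle member, had 161.7 in somas and 0.984 in cardiomyocytes. Ttn had 11 reads in somas (5.93 scaled) and 96560 in cardiomyocytes (7914 scaled) over 46 introns.

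In the dystrophin complex 8 of 12 listed members were in both lists. Dmd itself, whose products are found in muscle and in brain, was the contractile gene with the most scaled reads in both, 1579 in somas and 22010 in cardiomyocytes, a 13.9-fold difference (13.4 to 14.5). The sarcoglycan genes Sgcd and Sgce stood at 47.4 and 728.0 and at 481.8 and 1366. Sntg1, a syntrophin of neurons, had 838.1 scaled reads in somas and 25.6 in cardiomyocytes, while 7 members of its group leaned to the cardiomyocytes. Of the 10 listed genes of excitation-contraction coupling, 6 leaned to the cardiomyocytes and 2 to the somas, which were Bin1 (167.1 scaled reads) and Jph1 (17.2), both listed there alone. Trdn, which binds the ryanodine receptor, had 273.8 and 13010 scaled reads (47.5-fold, 43.6 to 51.9, but a soma to cardiomyocyte ratio of 0.2502 with contigs of at most 400 bases), the sodium-calcium exchanger gene Slc8a1 70.1 and 3864, and Casq2, the calcium-binding protein of the sarcoplasmic reticulum, 1.08 (2 reads) and 258.1. The kinase gene Camk2d was listed widely in both, at 940.5 and 4276, a soma to cardiomyocyte ratio of 0.22 that became 0.0367 with contigs of at most 400 bases. A few genes held most of each group: the 5 highest genes carried 53.2% of the channel reads in somas and 75.3% in cardiomyocytes, and 73.6% and 58.2% of the contractile reads.

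Within shared genes the reads often came from different introns. Applying the rule of leaning to single introns, 4494 introns (22.3%) leaned to the somas and 4346 (21.6%) to the cardiomyocytes. In 854 of the 3700 shared genes (23.1%) at least 1 intron leaned to each list. This held for 11 of the 53 shared channel genes (20.8%, 12.0 to 33.5%) and for 13 of the 41 shared contractile genes (31.7%, 19.6 to 47.0%), shares whose intervals include that of all shared genes. Kcnn2 was an example behind nearly equal gene totals, whose ratio of 0.879 became 0.0272 with contigs of at most 400 bases. Its intron 6 had 2502 soma reads (1348 scaled) and 6 cardiomyocyte reads (0.492 scaled), while its intron 3 had 111 (59.8 scaled) and 18586 (1523 scaled). In Cacna2d1, the auxiliary calcium channel subunit, intron 37 had 1117 soma reads and 4 cardiomyocyte reads (602.0 and 0.328 scaled), whereas intron 4 had 9997 cardiomyocyte reads and was not listed in somas. In Dmd intron 1, of 187480 bases, the scaled reads were 304.5 and 13440, but introns 36 and 37 leaned to the somas, at 97.6 against 5.33 and at 145.0 against 1.07. In Trdn the soma reads lay mostly in intron 24 (424 of 508), which was not listed in cardiomyocytes, and the cardiomyocyte reads in intron 8 (144061 of 158733). Kcnj3 differed from these. Its intron 2 took nearly all reads in both lists, and the contigs of the lists overlapped there by 752 bases, at 1816 and 2112 scaled reads.

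**Figure D3:**
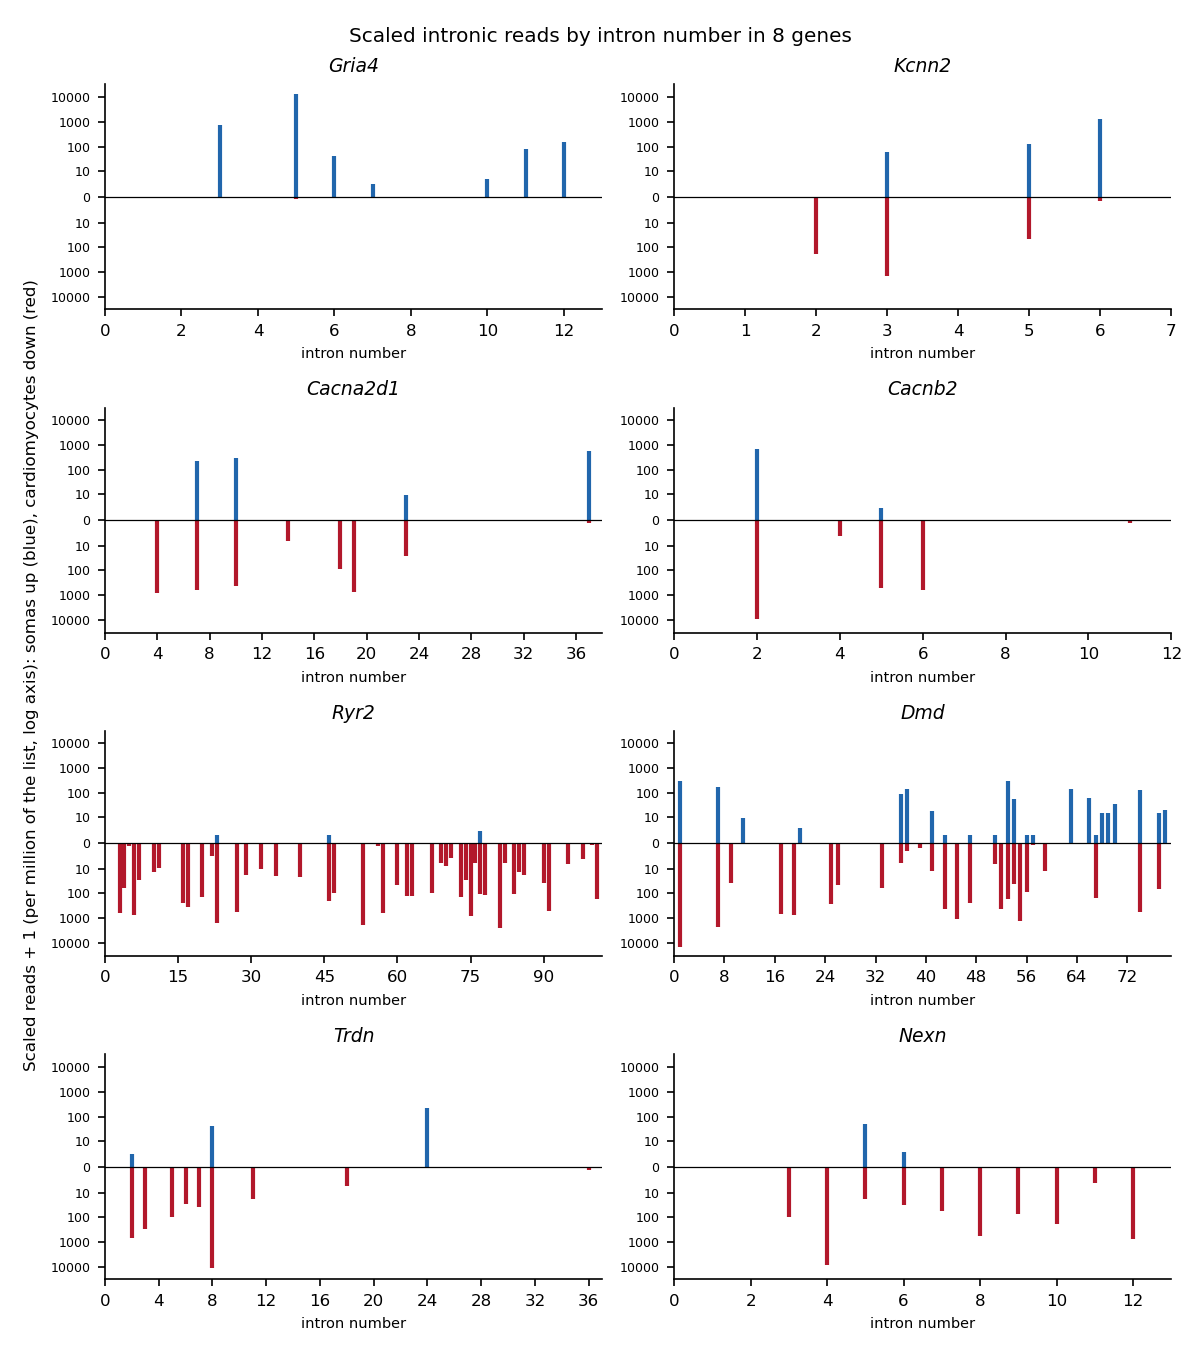
Scaled reads plus 1 (per 1000000 reads of the list, log axis) by intron number in 8 genes, with somas drawn upward in blue and cardiomyocytes downward in red. Where the isoforms of a gene were listed separately, the higher value of an intron number is drawn. Kcnn2, Cacna2d1, Dmd and Trdn have introns that lean to each list, Gria4 is almost wholly upward and Ryr2 almost wholly downward, whereas intron 5 of Nexn is higher in the somas (50.1 against 19.0).

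Even inside a common intron the contigs did not always coincide. In 2079 of the 3477 common introns (59.8%) contigs of the 2 lists overlapped by at least 1 base. The share fell with intron length, from 97.7% below 1000 bases to 25% between 30000 and 100000 bases, with 39.0% above that. Where they did not overlap, the nearest contigs were a median of 2042 bases apart. In Cacnb2 intron 2, with 12 soma and 38 cardiomyocyte contigs, the overlap was 2715 bases. In Gria3 intron 12, with similar scaled reads of 45.8 and 42.1, the contigs were 21373 bases apart.

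The lists also differed in the share of introns covered whole. A contig ran from the first to the last base of its annotated intron (within 3 bases) in 221 of 10353 soma introns of known length (2.13%, 1.87 to 2.43%) and in 1293 of 12826 cardiomyocyte introns (10.1%, 9.57 to 10.6%). The annotated bounds of nearly all of these introns are GT and AG, in 220 of 221 and 1284 of 1293. These bases come from the annotation and not from the reads. Contractile genes supplied 62 of them in cardiomyocytes, 16.9% of their 366 introns (13.4 to 21.1%), in 21 genes and none of the 117 listed introns of these genes in somas, of which only 3 were below 500 bases and 8 from 500 to below 1000. Ion channel genes supplied 3 of 201 in cardiomyocytes (1.49%), which were introns 81 and 91 of Ryr2 and intron 6 of Best3, and none of 244 in somas.

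Nexn had 9 of its 10 listed introns covered whole in the cardiomyocytes, from intron 6 of 76 bases to intron 4 of 3106 bases (108275 reads, chr3:151912666-151915771). Myl2 had 5 of 6, Myl3 4 of 6, Myl7 4 of 5 and Actc1 3 of 5, while Myh7 had 7 of 18 and Ttn 3 of 46. No lowest read count was set for these counts. Introns 10, 8, 9 and 32 of Myh7 were covered whole by only 8, 7, 3 and 2 reads. The longest was intron 8 of Trdn, with 144061 reads over all of its 4037 bases, where the 1 soma contig covered 9.86%. That cardiomyocyte contig overlapped an annotated exon, so its reads need not come from a whole retained intron. The short introns printed above held 819.8 scaled reads in Nexn intron 12, 126.3 in Myl3 intron 6, 68.6 in Myl2 intron 5 and 56.0 in Ttn intron 125, and none of the 4 was listed in the somas.

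Intron length moved with these shares, since the listed introns of contractile genes in cardiomyocytes had a median of 2006 bases and those of channel genes 5384. The contractile share was 54.7% against 59.5% of all introns of the list below 500 bases, and 31.2% against 25.2% from 500 to below 1000 bases, with intervals that include the share of the list. From 1000 to below 2000 bases it was 11.4% (8 of 70, 5.91 to 21.0%) against 4.44%, and from 2000 to below 5000 bases 4.94% (4 of 81, 1.94 to 12.0%) against 0.570%. Several introns of 1 gene are not independent. Introns were also split into 3 successive classes of raw count, each 4-fold wide and the first starting at 8 reads. Below 500 bases the share covered whole in these classes was 35.4% in somas and 69.2% in cardiomyocytes, 31.4% and 72.1%, and 23.3% and 76.5%. From 500 to below 1000 bases it was 6.88% and 21.2%, 5.06% and 43.1%, and 13.0% and 32.4%. The lists also differed in contig size, the most common length being 210 bases in the somas and 101 in the cardiomyocytes, and reads up to 500 bases apart had been joined. The part of read length and of joining in these shares was not tested.

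**Figure D4:**
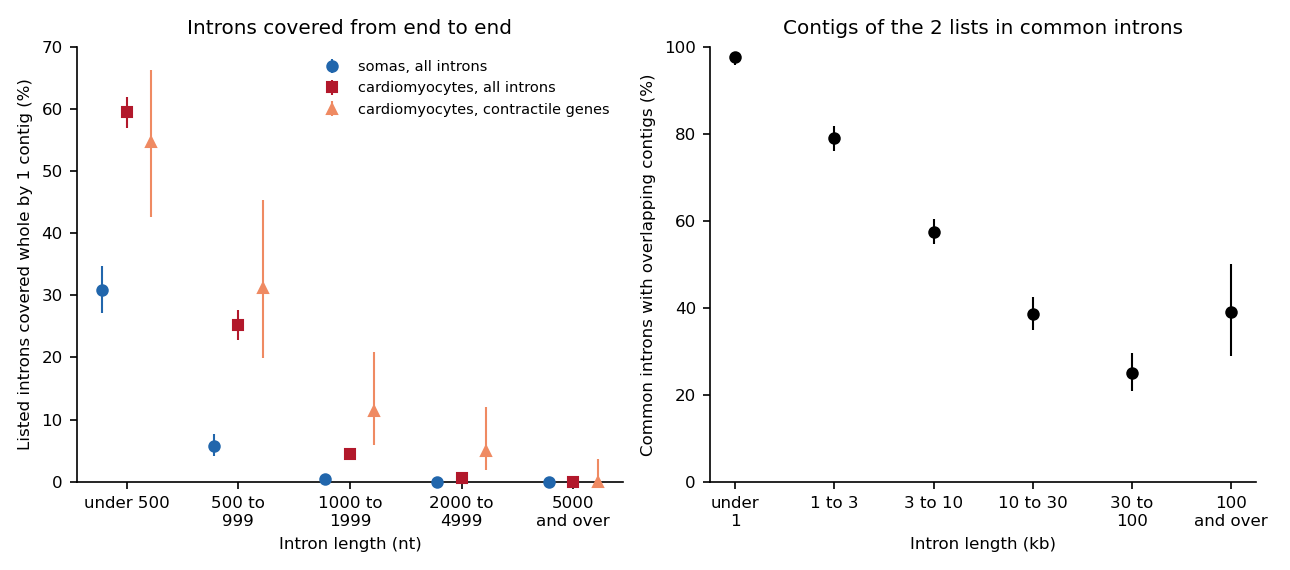
Left, share of listed introns covered from end to end by 1 contig, by intron length in nucleotides, for all soma introns, all cardiomyocyte introns and contractile introns in cardiomyocytes. Right, share of the common introns in which contigs of both lists overlap, by intron length in kilobases, falling from 97.7% to 25% before the longest class. Bars are 95% Wilson intervals.

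Runs of A on the sense strand followed contigs much more often than they preceded them. A run of at least 10 A lay within 300 bases downstream of 18.5% of the 12923 soma contigs examined and within 300 bases upstream of 2.59%. In the cardiomyocytes the shares were 9.42% and 2.40% of 16059 contigs. Runs of at least 10 T, the complement of an A run on the other strand, showed the mirror pattern, with 11.4% upstream and 4.19% downstream in somas and 7.61% and 4.45% in cardiomyocytes. Where an A run followed, it began a median of 6 bases after the contig in somas and 10 in cardiomyocytes. Channel genes were near all contigs in each list, with 18.9% in somas and 10.2% in cardiomyocytes. Contractile genes had 17.4% in somas but 4.98% (3.49 to 7.06%) in cardiomyocytes, below the 9.42% of that list. Runs of A inside contigs were found in 15.5% of all cardiomyocyte contigs, 18.2% of those in channel genes and 19.1% of those in contractile genes, and in 12.2%, 14.4% and 15.4% in somas. The primer of the amplification pairs with A runs, and the authors trimmed poly(A) and poly(T) from the reads before alignment. Contigs reached the 3' end of their intron, with exon downstream, in 10.4% of soma and 27.3% of cardiomyocyte introns. In contractile genes these shares were 5.98% and 32.8%. The part of primer, trimming and neighbouring exons in the A and T run shares was not tested. Base composition differed little, at a median of 41.6% G and C in soma contigs and 41.0% in cardiomyocyte contigs.

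**Figure D5:**
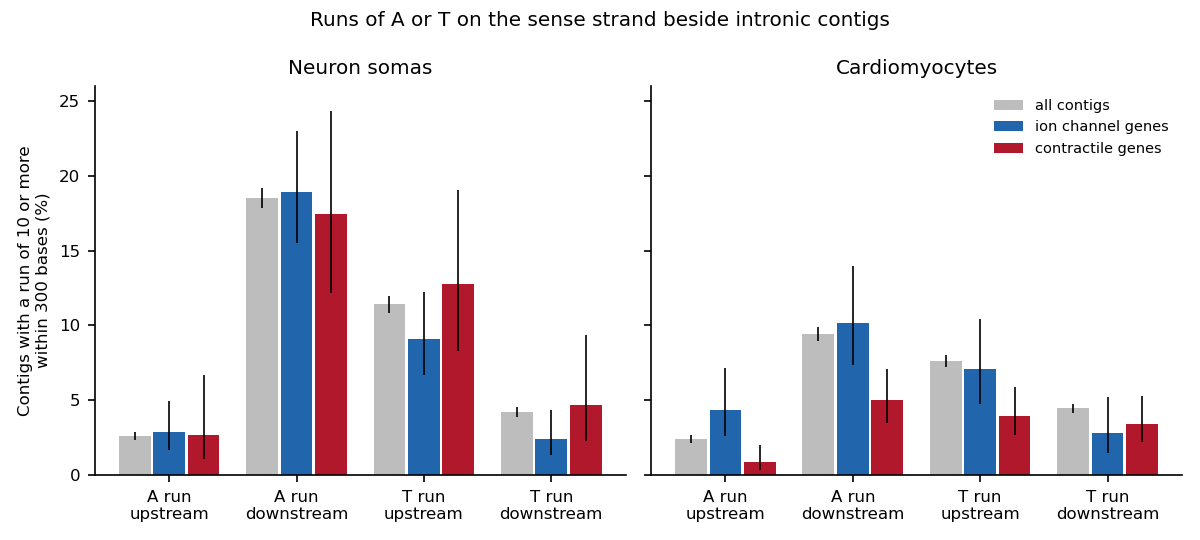
Share of contigs with a run of at least 10 A or 10 T on the sense strand within 300 bases upstream or downstream, in somas (left) and cardiomyocytes (right), for all contigs, ion channel genes and contractile genes. Bars on the columns are 95% Wilson intervals. A runs downstream reach 18.5% of all soma contigs and 9.42% of all cardiomyocyte contigs, against 2.59% and 2.40% upstream.

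Over all genes, with these groups included, the most-read introns of each list were of mixed function. In the soma list alone, intron 10 of Gad1, which makes the transmitter GABA, had 45674 reads (24616 scaled, chr2:70426138-70427428), followed by introns 2 and 3 of Rims1, a presynaptic scaffold, at 7558 and 5463. Intron 2 of Ces4a followed at 5225, and the remaining 6 of the leading 10, in Pde10a, Phlpp1, Fkbp6, Dgat2l6, Col19a1 and Ctnna2, stood between 4246 and 4926. In the cardiomyocyte list alone, Nexn intron 4 led with 8874 scaled reads, followed by Rbpms intron 1 (4442), Tpp2 intron 7 (4398) and Magi3 intron 4 (4123), with Trim55 intron 2 (2921) and Ryr2 intron 81 (2415) also in the leading 10. Among shared introns the highest lower value belonged to intron 3 of Slc25a4, the mitochondrial ATP carrier of heart and brain, at 4170 and 2591 scaled reads. Its 777 bases were covered whole in both lists, by contigs that overlapped an annotated exon. Of the introns with at least 32 reads in both lists, Fry intron 53 was 996-fold higher in somas (766 to 1319) and Trdn intron 8 was 274-fold higher in cardiomyocytes (220.0 to 345). Chd1 was the gene with the highest lower value among those without a common intron, at 783.1 scaled reads in somas, nearly all in intron 23, and 854.8 in cardiomyocytes, mostly in intron 5. Rbms3, also without a match by transcript, shares an annotated intron between the lists under different transcripts. Mlh3, a mismatch repair gene, was listed in the somas alone, with 741 reads in intron 2 and 111 in intron 10.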

How the data were processed

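The authors amplified poly(A) RNA from single cells by 3 rounds of linear aRNA amplification and sequenced it in paired ends. They trimmed adapter, poly(A) and poly(T) sequence and aligned the reads with Bowtie and RUM. Uniquely mapped intronic reads up to 500 bases apart were merged into contigs. A whole-intron contig can thus bridge unread bases. The deposited counts are raw read counts per intron, pooled over the libraries of a cell type and repeated for each contig of an intron, and they were taken once per transcript and intron. Mates appear to be counted separately: 17.5% of soma introns and 9.77% of cardiomyocyte introns held exactly 2 reads, which can be 1 fragment. The build is mm9 by the submitters' processing notes. Contig ends were read as 0-based and inclusive, because whole-intron contigs then end on the last base, and are given 1-based. Contigs were matched to GENCODE annotation on NCBIM37 (within 50 bases), which gave a place to 98.0% of soma introns and 98.2% of cardiomyocyte introns.

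Reads were scaled to 1000000 listed intronic reads, and a gene's value is the sum over its introns. With 1 list per condition no test was run. Shares have 95% Wilson intervals and ratios have exact binomial intervals, which cover counting error only. The rule of leaning (10 scaled reads, 4-fold) was chosen after values were seen, and the members and gene lists were chosen with earlier results of these data known. Named were the 10 introns with the most scaled reads in each list alone, the 10 shared introns with the highest lower value, the 5 largest ratios each way with at least 32 reads in both lists, channel and contractile genes of at least 100 scaled reads or the highest of their family, the cell type markers, the 5 leading genes without a common intron, Mlh3 and Kcnma1. Other genes, such as Kcnq5, Trim54, Myl7 and Best3, were named after their values were seen. The steps were tested on simulated data. The 2 rat lists were not used. Some genes that the naming rule covers are not reported here. Python 3.11.15, NumPy 2.4.6, pandas 2.3.3, SciPy 1.17.1, pysam 0.24.0 and Matplotlib 3.10.9 were used.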

Additional observations from a re-analysis of the deposited data

How the results depend on the processing

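Each cell type is 1 pooled list, so no library could be left out, and counting error is the only error that could be given. No paired analysis was possible because the libraries were pooled and no column holds a replicate. Of 78 alternative values for the main comparisons, 53 stayed within 1.5 times the reported count or close to the reported ratio, and 25 moved. Introns in both lists (3477) fell to 2059 with at least 8 reads, 1245 with at least 32 reads, 1149 with at least 10 scaled reads and 1668 with contigs of at most 400 bases. When contigs were matched by overlap in the genome in place of the intron, 2082 were in both. Contigs that touched an annotated exon were 9.61% of the soma and 11.4% of the cardiomyocyte contigs. Without them 2918 introns were in both lists. With at least 32 reads, 3439 introns were in the soma list alone and 6072 in the cardiomyocyte list alone. With at least 10 scaled reads these were 4369 and 4150, so the list with more introns of its own changed. Genes in both lists (3700) numbered 1670 at 32 reads and 1545 at 10 scaled reads, where 1633 genes were in the cardiomyocyte list alone and 2079 in the soma list alone, again the other order. Genes with a common intron (2462) numbered 1031 at 32 reads and 1385 with contigs of at most 400 bases. At 32 reads, 21 ion channel and 19 contractile genes were in both lists and 5 contractile genes in the soma list alone. Shared introns at least 4-fold higher numbered 395 in somas and 197 in cardiomyocytes at 32 reads in both lists, and 658 and 383 with contigs of at most 400 bases. The ion channel ratio of 1.45 became 1.5 with the transcript of most reads, 1.47 without the 10 most-read introns and 1.40 with contigs of at most 400 bases, where the contractile ratio of 0.0616 became 0.0773. The direction turned for 3 genes with contigs of at most 400 bases, the soma to cardiomyocyte ratio being 0.608 in Grin1, 19.7 in Smyd1 and 9.01 in Utrn. Among the other values for single genes 40 moved and 127 did not. With contigs of at most 400 bases 29 of 48 gene ratios moved by over 1.5 times, Scn2a1 from 3393 to 49.95 and Kcnab1 from 8140 to 661.6 among them, so the size of a gene's ratio depends on this limit. The fewer contigs entering these settings account for smaller counts by construction, and other causes were not tested.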

Other observations

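Of 85 synaptic genes 59 were listed, 52 in the somas and 38 in the cardiomyocytes. Of the 59, 39 leaned to the somas and 6 to the cardiomyocytes, and the list took 6.26% of the soma reads and 0.837% of the cardiomyocyte reads. Of 18 listed postsynaptic scaffolds 12 leaned to the somas and 2 to the cardiomyocytes. Rims1 had 17102 scaled reads in somas and 225.6 in cardiomyocytes. The opposite order was seen in the scaffold gene Magi3, at 126.7 and 4843. Of 32 cardiac transcription factors 13 were listed, with 8 leaning to the cardiomyocytes and 2 to the somas. Gata6 (1459) and Myocd (1043), an activator of muscle genes, were in the cardiomyocyte list alone, while Mef2a stood at 73.3 and 1789 and Srf at 166.0 in the somas alone.

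Many introns found in only one of these lists were listed in the other mouse samples. Of the introns in the soma list alone, 42.4% were in the list of hippocampal dendrites and 44.3% in that of brown adipose tissue. Of those in the cardiomyocyte list alone, 27.6% and 53.4% were, and of the introns in both lists 58.7% and 78.2%.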
